A study of Mus musculus with 9 samples.

Results

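Natriuretic peptides are hormones that heart muscle cells release when the chamber wall is stretched. The genes described here are the 7 that make, process and receive them in the left ventricle: the hormone genes Nppa and Nppb, the protease genes Corin and Furin, and the receptor genes Npr1, Npr2 and Npr3. They were chosen by name as known wall-stress hormones with their convertases and receptors, and all 7 were found among the 16698 genes analysed. After constriction of the aorta in newborn mice both hormone genes were higher than in sham hearts, Npr1 and Npr3 were lower, and Corin was the member whose level differed between constriction at day 1 and at day 7.

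Nppa encodes the precursor of atrial natriuretic peptide and Nppb that of brain natriuretic peptide. The precursors are cut to active hormones by corin, a protease anchored in the membrane of heart muscle cells, and by furin, a convertase of the secretory pathway. The hormones bind the receptor encoded by Npr1, which makes cyclic GMP (cGMP) and so lowers blood volume and vessel tone. The receptor encoded by Npr2 also makes cGMP but prefers C-type natriuretic peptide, and the receptor encoded by Npr3 takes the peptides up and clears them. In the mouse, Nppa is active in atria and ventricles of the fetal heart, becomes mostly atrial after birth, and returns in the ventricle under load.

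The study sequenced left ventricular mRNA of ICR/CD1 mice at postnatal day 14, in 9 libraries. Transverse aortic constriction (TAC), a ligature that narrows the aortic arch and loads the left ventricle, was made at postnatal day 1 for 3 libraries (day-1 TAC) and at postnatal day 7 for 3 libraries (day-7 TAC). The other 3 libraries came from sham surgery, whose day is not stated in the labels. At harvest, day-1 TAC hearts had been under load for longer than day-7 TAC hearts, so age at surgery and time under load cannot be told apart. Separate animals or litters within a group are not stated in the labels, and p-values therefore measure only how far these samples spread.

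Recovered depth was 18538900 to 26529531 reads per library, and each member had at least 321 reads in every library. The lowest mean correlation across genes with the rest of its group was that of day-1 TAC replicate 1 (r = 0.9814, against 0.9826 to 0.9876 for the other libraries). Day-1 TAC replicate 3 held 10532 reads of Xist, against at most 40 in the others, and 18 reads of the Y-linked gene Ddx3y, against 3312 to 4706. Member results without each of them are given below.

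Nppa and Nppb are neighbours on mouse chromosome 4. On GRCm38 (mm10), Nppb lies at chr4:147985788-147987205 and Nppa at chr4:148000722-148002079, both on the plus strand, with 13516 bases between them. The sequences before their start sites are shown because both genes were higher in the TAC libraries. They come from the RefSeq promoter table for GRCm38.p6, which holds an entry for all 7 members, and positions are counted back from the RefSeq start. In the Nppa sequence at chr4:148000472-148000721 the capitals mark the letters of the GATA motif (GATAA, or TTATC where the match is on the other strand) and of the NKE motif bound by NK-2 factors (AAGTG).

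Nppa: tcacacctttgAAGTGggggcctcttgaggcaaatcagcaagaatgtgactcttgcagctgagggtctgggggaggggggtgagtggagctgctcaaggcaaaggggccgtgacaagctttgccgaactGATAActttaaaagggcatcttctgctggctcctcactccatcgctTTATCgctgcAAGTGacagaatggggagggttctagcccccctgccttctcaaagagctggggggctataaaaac

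The 2 GATA matches of Nppa began at -121 and -75, and the 2 NKE matches at -239 and -65. The NKE match at -65 also lies in a match to the E-box letters (CANNTG). In Nppb the corresponding stretch, chr4:147985795-147985824, falls in the first exon of the GENCODE gene model, whose start lies before the RefSeq start. Its capitals mark an M-CAT match (CATTCC, here on the other strand) and 2 GATA matches, which began at -105, -94 and -83. The GATA match at -94 shares its first base with a match to the E-box letters.

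Nppb: GGAATGcagctGATAAatcagaGATAAccc

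Both strands of all promoters were searched over the same 250 bases. GATAA was found in 22.6% of 32851 windows, AAGTG in 40.7%, CATTCC in 12.6% and CANNTG in 66.2%. Of the 7 members, Nppa and Nppb held GATAA, Nppb held CATTCC, and Nppa and Furin held AAGTG. The AP-1 letters (TGANTCA, in 6.75% of windows) and the CArG box (1.47%) matched in none of the 7 windows. A match is a run of letters and not a measured binding site.

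Nppa was the member with the highest level per length in every library, and it was higher in both TAC groups than in sham. Its deposited log2 values were 12.12, 11.52 and 11.37 in day-1 TAC libraries, 12.50, 11.90 and 12.11 in day-7 TAC libraries, and 8.58, 9.21 and 8.83 in sham libraries. Every TAC library lay above every sham library, and the TAC groups overlapped. The day-1 TAC libraries held 51034 to 93344 reads of Nppa, the day-7 TAC libraries 73472 to 138360, and the sham libraries 7681 to 15192. Against sham, day-1 TAC libraries held 6.94-fold more Nppa (log2 fold change 2.80, SE 0.22, limma adjusted p = 7.1e-05) and day-7 TAC libraries 9.80-fold more (3.29, SE 0.22, limma adjusted p = 3.72e-05). It ranked 39 and 27 from the top of the 13712 tested genes in these comparisons. Both comparisons use the same sham libraries, here and for every gene below.

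Nppb had log2 values of 9.56, 8.62 and 9.28 in day-1 TAC libraries, 9.46, 9.33 and 9.53 in day-7 TAC libraries, and 7.32, 7.43 and 6.88 in sham libraries. Again no TAC library overlapped sham, while the TAC groups overlapped each other. The rise was 3.85-fold in day-1 TAC libraries (log2 fold change 1.94, SE 0.21, limma adjusted p = 0.000234) and 4.68-fold with day-7 TAC (2.23, SE 0.21, limma adjusted p = 0.000159). Between TAC at day 1 and at day 7 neither hormone gene passed the test. The difference was -0.50 for Nppa (95% interval -0.99 to -0.004, limma adjusted p = 0.148) and -0.28 for Nppb (95% interval -0.76 to 0.19, limma adjusted p = 0.386). Without day-1 TAC replicate 1, which held the highest Nppa and Nppb values of its group, the Nppa difference was -0.72 with a limma adjusted p of 0.0446.

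**Figure D1:**
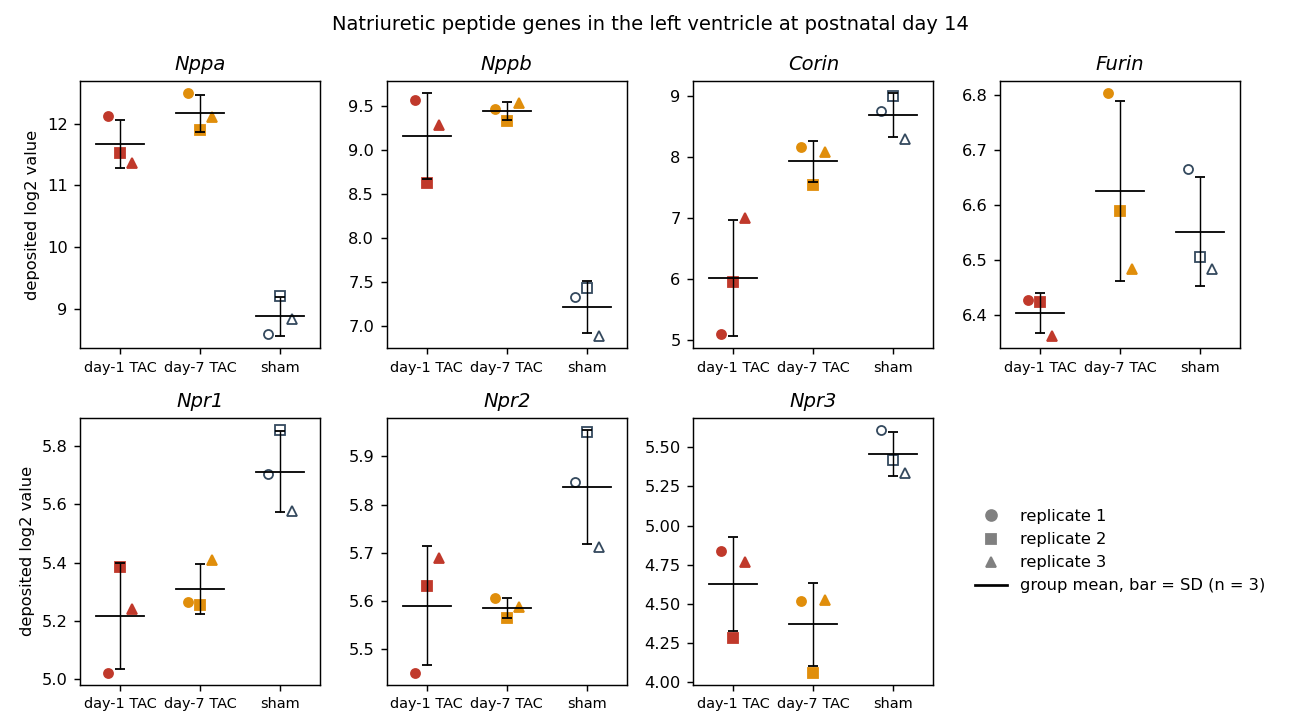
Deposited log2 values of the 7 genes in each library, with day-1 TAC, day-7 TAC and sham from left to right. Points are libraries, lines are group means and bars are SD (n = 3). Nppa and Nppb lie above sham in all 6 TAC libraries, and Corin has a day-1 TAC mean of 6.02, against 7.93 with day-7 TAC and 8.68 in sham.

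Fold changes were larger for Nppa than for Nppb, and a ratio sets the genes against each other within a library. The log2 ratio of Nppa to Nppb within a library was 2.55, 2.91 and 2.09 in day-1 TAC libraries, 3.03, 2.58 and 2.58 in day-7 TAC libraries, and 1.26, 1.78 and 1.95 in sham libraries. All TAC ratios exceeded all sham ratios, though the lowest day-1 TAC value lay close to the highest sham value. The difference of means from sham was 0.85 with day-1 TAC and 1.06 with day-7 TAC (two-sided exact permutation p = 0.1 for each, the smallest that 3 against 3 libraries can give). Between the TAC groups it was -0.21 (exact permutation p = 0.4). Gene length cancels in these comparisons.

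Corin was lower with day-1 TAC than in either other group. Its log2 values were 5.10, 5.96 and 7.00 in day-1 TAC libraries, 8.15, 7.54 and 8.09 in day-7 TAC libraries, and 8.75, 9.003 and 8.30 in sham libraries. The 3 groups did not overlap, and the day-1 TAC libraries spread far more widely (SD 0.95) than day-7 TAC libraries (SD 0.34) or sham libraries (SD 0.36). The day-1 TAC libraries held 722, 1267 and 2475 reads of Corin, the day-7 TAC libraries 3567 to 6826, and the sham libraries 6050 to 13134. Compared with sham, Corin was 6.33-fold lower in day-1 TAC libraries (log2 fold change of -2.66, SE 0.39, limma adjusted p = 0.000854), rank 36 from the bottom of all tested genes.

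With day-7 TAC the Corin difference from sham was -0.76 (95% interval -1.61 to 0.10, limma adjusted p = 0.164), which did not pass the test although the groups did not overlap. The direct comparison did pass: Corin was 3.74-fold lower in day-1 TAC libraries than in day-7 TAC libraries (log2 fold change -1.90, SE 0.39, 95% interval -2.76 to -1.05, limma adjusted p = 0.00994). This fall ranked 41 from the bottom. Day-1 TAC replicate 1 had the lowest and replicate 3 the highest Corin of the group. Without replicate 1 the difference between the TAC groups was -1.44 (limma adjusted p = 0.0176), and without replicate 3 it was -2.39 (limma adjusted p = 0.00244). Against sham, the day-1 TAC fall was -2.20 without replicate 1 and -3.15 without replicate 3, and both passed. The spread of the day-1 TAC libraries enters the shared error: without replicate 3 the day-7 TAC difference from sham, unchanged in size, had a limma adjusted p of 0.0493.

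Furin, the broadly expressed convertase, differed little. Its log2 values were 6.43, 6.42 and 6.36 in day-1 TAC libraries, 6.80, 6.59 and 6.48 in day-7 TAC libraries, and 6.67, 6.51 and 6.48 in sham libraries. The day-1 TAC values lay just under both other groups, and day-7 TAC overlapped sham. No comparison passed the test, with a log2 fold change of -0.15 between day-1 TAC and sham (95% interval -0.34 to 0.05, limma adjusted p = 0.22). The other values were 0.07 between day-7 TAC and sham (95% interval -0.12 to 0.27, limma adjusted p = 0.56) and -0.22 for day-1 TAC against day-7 TAC (95% interval -0.42 to -0.03, limma adjusted p = 0.11).

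The log2 ratio of Corin to Furin, the membrane protease relative to the convertase, was -1.32, -0.46 and 0.64 in day-1 TAC libraries, 1.35, 0.95 and 1.60 in day-7 TAC libraries, and 2.09, 2.497 and 1.81 in sham libraries. The 3 groups did not overlap. In day-1 TAC replicates 1 and 2 the linear value of Corin was below that of Furin, at 0.40 and 0.73 times its value, while in sham libraries it was 3.52 to 5.65 times the Furin value. These ratios are not corrected for length. The difference of mean log2 ratios was -2.51 for day-1 TAC against sham and -1.68 for day-1 TAC against day-7 TAC, each with the smallest exact permutation p of 0.1.

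**Figure D2:**
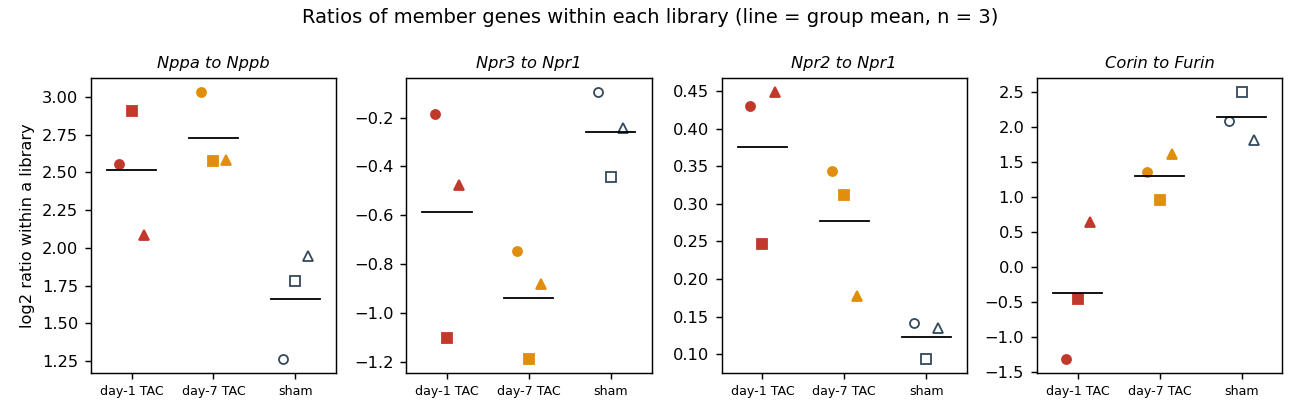
Log2 ratios of member pairs within each library, by group, with day-1 TAC, day-7 TAC and sham from left to right; points are libraries (circle, square and triangle for replicates 1, 2 and 3) and lines are group means (n = 3). The Nppa to Nppb ratio is higher in all TAC libraries than in sham, and the Corin to Furin ratio separates the 3 groups.

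Among the receptors, Npr3, which clears the peptides, showed the largest falls. Its log2 values were 4.84, 4.28 and 4.77 in day-1 TAC libraries, 4.52, 4.06 and 4.53 in day-7 TAC libraries, and 5.61, 5.42 and 5.34 in sham libraries. All TAC libraries lay below all sham libraries, and the TAC groups overlapped. Npr3 was 1.77-fold lower in day-1 TAC libraries (log2 fold change -0.82, SE 0.17, limma adjusted p = 0.00407) and 2.12-fold lower with day-7 TAC (-1.08, SE 0.17, limma adjusted p = 0.00132). The TAC groups differed by 0.26 (95% interval -0.11 to 0.63, limma adjusted p = 0.306).

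Npr1, the receptor for both hormones, had log2 values of 5.02, 5.39 and 5.24 in day-1 TAC libraries, 5.26, 5.25 and 5.41 in day-7 TAC libraries, and 5.70, 5.86 and 5.58 in sham libraries. It fell by 0.50 on the log2 scale with day-1 TAC (SE 0.11, limma adjusted p = 0.00578) and fell by 0.40 with day-7 TAC (SE 0.11, limma adjusted p = 0.0181). All TAC libraries were below sham. When sham replicate 2 was left out, the day-7 TAC call was lost (limma adjusted p = 0.0732). It was also lost when replicate 1 of day-7 TAC (limma adjusted p = 0.0566) or its replicate 2 (limma adjusted p = 0.0645) was left out. Between the TAC groups Npr1 differed by -0.09 (95% interval -0.33 to 0.14, limma adjusted p = 0.582).

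Npr2, the receptor for C-type natriuretic peptide, had log2 values of 5.45, 5.63 and 5.69 in day-1 TAC libraries, 5.61, 5.57 and 5.59 in day-7 TAC libraries, and 5.85, 5.95 and 5.71 in sham libraries. TAC libraries lay below sham by a small margin. The log2 fold change was -0.25 in both comparisons with sham (SE 0.085), with a limma adjusted p of 0.0466 for day-1 TAC and 0.0501 for day-7 TAC. The day-1 TAC call held in 2 of 9 fits that each left out a library, those without sham replicate 3 and without day-1 TAC replicate 3, and the highest limma adjusted p of these fits was 0.168. It was also lost in 7 of 9 other settings, such as other scalings, with a limma adjusted p of up to 0.196. The TAC groups differed by 0.004 (95% interval -0.19 to 0.19, limma adjusted p = 0.981).

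Ratios also set the receptors against each other. The log2 ratio of Npr3 to Npr1, clearance relative to signalling receptor, was -0.19, -1.10 and -0.47 in day-1 TAC libraries, -0.75, -1.19 and -0.88 in day-7 TAC libraries, and -0.09, -0.44 and -0.24 in sham libraries. Day-7 TAC lay below sham with a difference of -0.68 (exact permutation p = 0.1), whereas day-1 TAC overlapped sham, with a difference of -0.33 (exact permutation p = 0.4). The difference between the TAC groups was 0.35 (exact permutation p = 0.3). The log2 ratio of Npr2 to Npr1 was 0.38 ± 0.11 with day-1 TAC, 0.28 ± 0.09 with day-7 TAC and 0.12 ± 0.03 in sham (SD, n = 3 each), and neither TAC group overlapped sham.

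Counted over the 7 members, 2 rose and 4 fell with day-1 TAC against sham, where 14.3% of all tested genes were called higher and 20.5% lower (34.8% in all). With day-7 TAC, 2 rose and 2 fell, against 13.8% of tested genes higher and 15.1% lower (28.9% in all). Between the TAC groups 1 member was called, lower with day-1 TAC, where 6.42% of tested genes were called higher and 10.3% lower (16.7% in all). Groups did not overlap for 7 members in the day-1 TAC comparison with sham, where 48.0% of tested genes did not overlap. The same held for 6 members in the day-7 TAC comparison with sham (46.7% of tested genes) and for 2 members in the comparison of both TAC groups (38.9% of tested genes). The median log2 fold change of the members was -0.25, -0.25 and -0.22 in these comparisons, against -0.04, -0.01 and -0.03 for all tested genes.

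The members called with day-1 TAC against sham were refitted without the libraries that stood apart. Without replicate 1 of day-1 TAC the log2 fold changes were 2.57 for Nppa, 1.74 for Nppb, -0.93 for Npr3 and -0.40 for Npr1, and all passed the test. Without replicate 3 they were 2.95 for Nppa, 1.88 for Nppb, -0.89 for Npr3 and -0.51 for Npr1, and all passed. Npr2 was at -0.18 without replicate 1 (limma adjusted p = 0.148) and at -0.29 without replicate 3 (limma adjusted p = 0.0413).

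**Figure D3:**
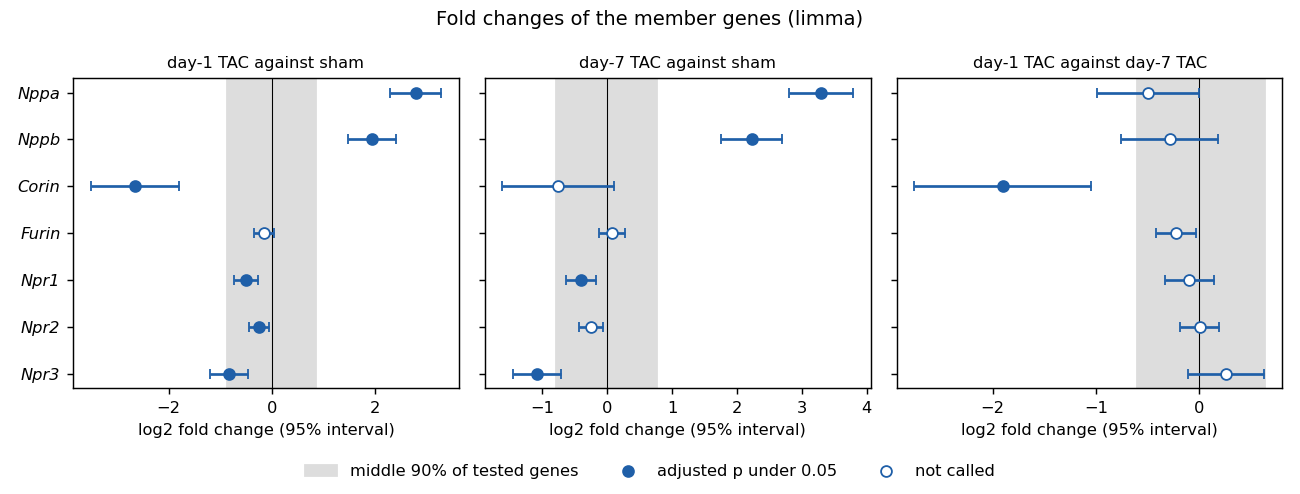
Log2 fold changes of the 7 genes with 95% intervals; the panels compare, from left to right, day-1 TAC with sham, day-7 TAC with sham, and both TAC groups. Filled points passed the test and the grey band holds the middle 90% of tested genes. Nppa, Nppb and Corin reach values of 2.80, 1.94 and -2.66 with day-1 TAC, outside the band.

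Levels between genes were compared as the linear value per kilobase of merged exons. In sham the means were 552 for Nppa, 192 for Nppb, 77.7 for Corin, 12.3 for Npr2, 11.0 for Npr1, 10.2 for Furin and 4.68 for Npr3. The ranges of Npr2 (11.2 to 13.2), Npr1 (9.99 to 12.1) and Furin (9.75 to 11.1) overlapped from neighbour to neighbour, and the other neighbours in this order did not. With day-7 TAC Nppa reached 5399, Nppb 890 and Corin 45.8 per kilobase, and Npr3 was lowest at 2.23. With day-1 TAC Nppa was at 3868 and Nppb at 756. Corin then averaged 13.9 (range 6.37 to 23.8), so that its range took in those of Npr2 (9.38 to 11.1), Furin (8.96 to 9.38) and Npr1 (6.79 to 8.74). Merged exons of several transcripts overstate the length of a single one, which lowers these levels for Furin and Npr3 in particular, with 9178 and 9389 merged bases.

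**Figure D4:**
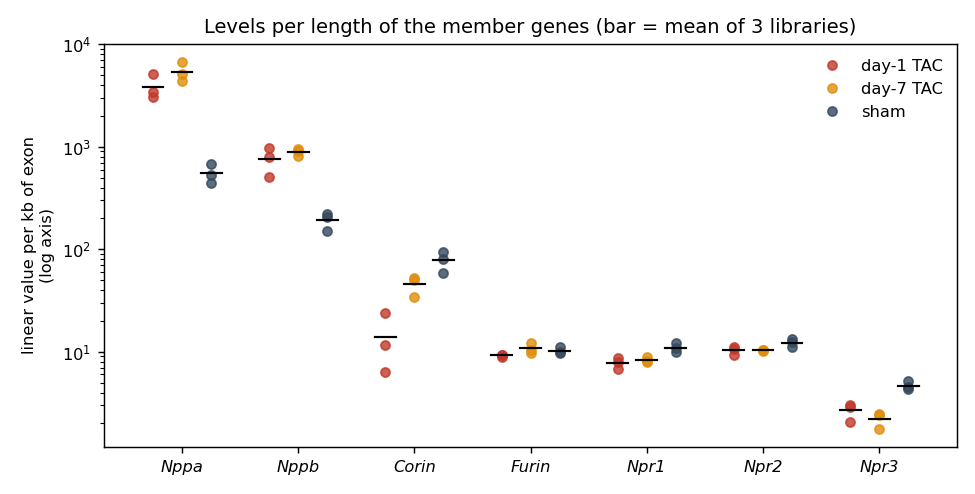
Linear value per kilobase of merged exons on a log axis for the 7 genes; for each gene day-1 TAC, day-7 TAC and sham stand from left to right, points are libraries and bars are means of 3. The hormone genes stand above all others in every group, and Corin with day-1 TAC (mean 13.9) comes down to the range of the receptors and Furin.

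Corin lies at chr5:72300025-72504473, Furin at chr7:80388585-80405436, Npr1 at chr3:90450591-90465866, Npr2 at chr4:43631935-43651244 and Npr3 at chr15:11839896-11907287 on the same build. Nppa, Corin, Furin, Npr1, Npr2 and Npr3 each share exonic bases with an annotated noncoding gene on the opposite strand. The strand setting of the counting is not given in the sources used here, so reads of these partners cannot be told apart from those of the members.

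Other genes encode a further ligand of the receptors or enzymes that remove or prepare the peptides. The counts of the lists from here on stand beside the share of all tested genes called. Over all tested genes, 14.3% were higher and 20.5% lower with day-1 TAC against sham, 13.8% and 15.1% with day-7 TAC against sham, and 6.42% and 10.3% between the TAC groups. Of 4 tested members of that list, 1 rose and 3 fell with day-1 TAC, none rose and 3 fell with day-7 TAC, and 1 was higher and 2 lower between the TAC groups. Mme encodes neprilysin, the peptidase that degrades natriuretic peptides. Its log2 values were 4.83, 5.21 and 4.81 in day-1 TAC libraries, 3.10, 3.44 and 3.66 in day-7 TAC libraries, and 4.41, 4.27 and 4.66 in sham libraries. The 3 groups did not overlap, with day-1 TAC above sham and day-7 TAC below it.

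Mme rose by 0.50 with day-1 TAC (SE 0.16, limma adjusted p = 0.0372) and fell with day-7 TAC by 1.05 (SE 0.16, limma adjusted p = 0.00152). The difference between the TAC groups, 1.55 (SE 0.16, limma adjusted p = 0.000668), passed in every fit that left out a library, with a limma adjusted p of at most 0.00413. The rise against sham depended on single libraries: it did not pass when replicate 2 of any group or replicate 1 of sham was left out, with a limma adjusted p of up to 0.129.

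Dpp4 encodes a peptidase that trims brain natriuretic peptide. Its log2 values were 2.65, 2.83 and 2.78 in day-1 TAC libraries, 3.59, 3.66 and 3.46 in day-7 TAC libraries, and 4.18, 4.12 and 4.09 in sham libraries. The groups were fully separated, with log2 fold changes of -1.38 between day-1 TAC and sham, -0.57 between day-7 TAC and sham, and -0.82 between day-1 TAC and day-7 TAC (limma adjusted p = 6.6e-05, 0.00286 and 0.00128). Ide, the insulin-degrading enzyme, fell by 0.26 with day-1 TAC (limma adjusted p = 0.024). Leaving out sham replicate 2 or 3, or replicate 1 or 3 of day-1 TAC, ended the call, with a limma adjusted p of up to 0.0751. With day-7 TAC its difference from sham was 0.06 (limma adjusted p = 0.592). Nppc, the gene of C-type natriuretic peptide, had 1 to 8 reads per library and was not tested, and Ostn, Mep1a and Mep1b are not analysed here.

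Of 5 tested convertases other than Furin, 1 rose and 2 fell in each TAC group against sham, and 1 was lower with day-1 TAC than with day-7 TAC. The shares over all tested genes were 14.3% higher and 20.5% lower with day-1 TAC, and 13.8% and 15.1% with day-7 TAC. Pcsk6, which activates corin in the mouse, fell by 0.50 with day-1 TAC (SE 0.08, limma adjusted p = 0.00147) and fell by 0.31 with day-7 TAC (SE 0.08, limma adjusted p = 0.0176). The day-7 TAC call was lost without sham replicate 3 or day-7 TAC replicate 1, with a limma adjusted p of up to 0.0657. The convertase gene Pcsk5 rose by 0.64 with day-1 TAC (limma adjusted p = 0.00274) and rose by 0.61 with day-7 TAC (limma adjusted p = 0.00446). Mbtps1, the site-1 protease, fell by 0.31 with day-1 TAC and kept its call in every fit that left out a library (limma adjusted p 0.00794 to 0.0229). With day-7 TAC it fell by 0.21 (limma adjusted p = 0.0357), a call lost when sham replicate 2 or 3, or replicate 1 or 2 of day-7 TAC, was left out (limma adjusted p of up to 0.12).

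Of 17 tested genes that make, use or break down cGMP, 3 rose and 7 fell with day-1 TAC, none rose and 5 fell with day-7 TAC, and 3 were higher and 3 lower with day-1 TAC than with day-7 TAC. Over all tested genes, 14.3% rose and 20.5% fell with day-1 TAC, 13.8% and 15.1% with day-7 TAC, and 6.42% and 10.3% differed between the TAC groups. The list's median log2 fold change was -0.02, -0.15 and -0.03. Rgs2, which dampens G-protein signals and is activated by the cGMP-dependent kinase, had log2 values of 4.35, 4.77 and 5.34 in day-1 TAC libraries, 6.21, 5.71 and 5.39 in day-7 TAC libraries, and 7.01, 6.94 and 6.62 in sham libraries. It fell by 2.04 with day-1 TAC (SE 0.25, limma adjusted p = 0.000385) and fell by 1.09 with day-7 TAC (SE 0.25, limma adjusted p = 0.0094). The difference between the TAC groups, -0.95 (limma adjusted p = 0.0278), was lost without replicate 1 or 2 of either TAC group, with a limma adjusted p of up to 0.0911.

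Phosphodiesterase genes moved in both directions. Pde1c fell by 1.46 with day-1 TAC and fell by 0.80 with day-7 TAC (limma adjusted p = 2.38e-05 and 0.000317), and its log2 difference between day-1 TAC and day-7 TAC was -0.67 (limma adjusted p = 0.00208). Pde3a had log2 fold changes of -1.07 and -0.49 in the same comparisons with sham (limma adjusted p = 0.000237 and 0.0122). Pde9a, whose enzyme breaks down cGMP made in response to natriuretic peptides, had log2 values of 4.62, 4.49 and 4.45 in day-1 TAC libraries, 3.998, 4.06 and 3.92 in day-7 TAC libraries, and 3.77, 3.81 and 3.83 in sham libraries. All groups were separated in that order. The rise with day-1 TAC was 0.72 (SE 0.09, limma adjusted p = 0.000365), the day-7 TAC difference was 0.19 (limma adjusted p = 0.121), and the TAC groups differed by 0.53 (limma adjusted p = 0.00462). Abcc5, which exports cGMP, fell by 0.42 with day-1 TAC (SE 0.09, limma adjusted p = 0.00505) and fell by 0.41 with day-7 TAC (SE 0.09, limma adjusted p = 0.00703).

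**Figure D5:**
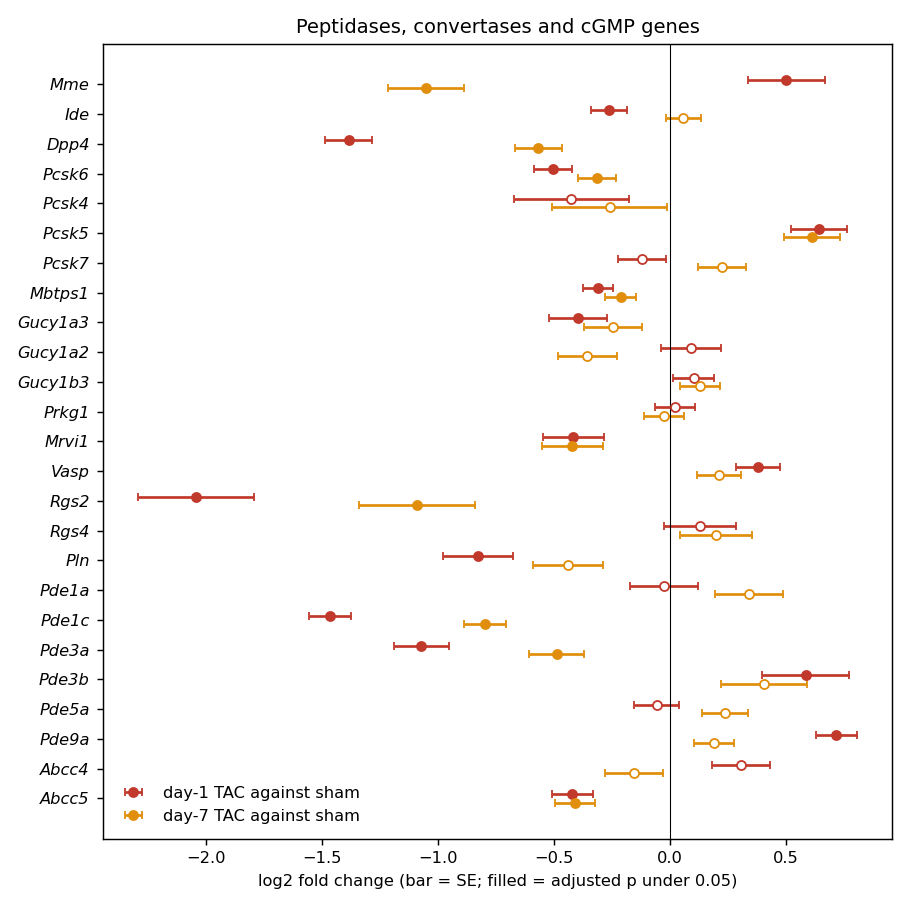
Log2 fold changes with SE for tested genes that clear or prepare the peptides, convertases, and genes of cGMP synthesis, action and breakdown; day-1 TAC against sham is drawn above day-7 TAC against sham, and filled points passed the test. Mme has values of 0.50 and -1.05 on opposite sides of 0, and Rgs2, Pde1c and Dpp4 lie farther below 0 with day-1 TAC.

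Of 26 transcription factors and regulators known at the Nppa and Nppb promoters, 2 rose and 13 fell with day-1 TAC, and 2 rose and 7 fell with day-7 TAC. Between the TAC groups 3 were higher and 7 lower with day-1 TAC. The shares over all tested genes in these comparisons were 14.3% higher and 20.5% lower, 13.8% and 15.1%, and 6.42% and 10.3%. Hdac5, a histone deacetylase that represses such genes in heart muscle, fell by 0.81 with day-1 TAC and fell by 0.90 with day-7 TAC (limma adjusted p = 0.000812 and 0.000588). Gata6 fell by 0.85 with day-1 TAC (limma adjusted p = 0.00121), and its day-7 TAC value of -0.37 did not pass (limma adjusted p = 0.0579). Its log2 difference between day-1 TAC and day-7 TAC was -0.47 (limma adjusted p = 0.0366). Gata4 rose by 0.37 with day-7 TAC (limma adjusted p = 0.0296), and its day-1 TAC value of 0.21 did not pass (limma adjusted p = 0.162). Nkx2-5, an NK-2 factor, fell by 0.38 with day-1 TAC and by 0.43 with day-7 TAC (limma adjusted p = 0.0241 and 0.0172). Tbx5 fell in both TAC groups, with log2 fold changes of -1.41 with day-1 TAC and -1.26 with day-7 TAC (limma adjusted p = 0.00271 and 0.00599). The TAC groups differed by -0.15 in Tbx5 (limma adjusted p = 0.727). Egr1 rose by 1.94 with day-1 TAC (SE 0.33, limma adjusted p = 0.00181) and was 1.75 higher than with day-7 TAC (limma adjusted p = 0.00766), where its difference from sham was 0.19 (limma adjusted p = 0.696). Atf3 rose by 2.67 with day-7 TAC (SE 0.28, limma adjusted p = 0.000208) and its log2 difference between day-1 TAC and day-7 TAC was -2.07 (limma adjusted p = 0.00196). With day-1 TAC its difference from sham was 0.60 (limma adjusted p = 0.114). Fos rose by 1.38 with day-1 TAC (SE 0.24, limma adjusted p = 0.0022), and its day-7 TAC difference from sham was 0.11 (limma adjusted p = 0.76). Jun, of the same list, passed in no comparison, and its TAC groups differed by 0.12 (limma adjusted p = 0.457).

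Genes beside Nppa and Nppb on chromosome 4 divided between rises and falls. Of 10 tested genes on a list of neighbours, 3 rose and 3 fell with day-1 TAC, and 1 rose and 1 fell with day-7 TAC, with medians of 0.01 and 0.02, against 14.3% higher and 20.5% lower, and 13.8% and 15.1%, of all tested genes. The nearest on the Nppb side, 2510039O18Rik, rose by 0.27 with day-1 TAC and 0.36 with day-7 TAC (limma adjusted p = 0.0133 and 0.00406). The day-1 TAC call was lost in 1 of 9 fits that left out a library. Clcn6, the nearest on the Nppa side, fell by 0.40 with day-1 TAC (limma adjusted p = 0.0485). With day-7 TAC its difference from sham was 0.15 (limma adjusted p = 0.437). Agtrap, which encodes a protein that binds the angiotensin II receptor, rose by 0.46 with day-1 TAC (limma adjusted p = 0.00282) and was 0.63 higher than with day-7 TAC (limma adjusted p = 0.00218), where its difference from sham was -0.17 (limma adjusted p = 0.172). Within 250000 bases of Nppa the table held 3 further tested genes that were not on the list and are named after their values were seen. Fv1, which encodes a retrovirus restriction factor, rose by 0.84 with day-1 TAC (limma adjusted p = 0.0256) and was 0.98 higher than with day-7 TAC (limma adjusted p = 0.0248), where its difference from sham was -0.15 (limma adjusted p = 0.69). The zinc finger gene Zfp933 fell by 0.30 with day-1 TAC (limma adjusted p = 0.0313), and its day-7 TAC value was -0.22 (limma adjusted p = 0.107). Zfp984 did not pass in either group, at 1.18 with day-1 TAC and 0.60 with day-7 TAC (limma adjusted p = 0.131 and 0.458).

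Cell type markers were set beside these values, because in bulk samples fewer cells of a type and less RNA per cell cannot be told apart. Myl2, the ventricular light chain, was at 13.8 to 14.1 on the log2 scale in every library. This level marks ventricular tissue, and it tells neither the side nor the part of atrial tissue. Nppa is also made in atria. Of 14 tested atrial markers, 1 rose and 2 fell with day-1 TAC, and 1 rose and 3 fell with day-7 TAC. For this and the next marker lists, the shares of all tested genes were 14.3% higher and 20.5% lower with day-1 TAC, and 13.8% and 15.1% with day-7 TAC. The summed linear level of the atrial markers was 472 to 706 in day-1 TAC libraries, 328 to 651 in day-7 TAC libraries and 578 to 645 in sham libraries, so the groups overlapped. In that sum Kcnj5, which fell in both TAC groups, held 72.5 to 113 in day-1 TAC libraries, 90.4 to 133 in day-7 TAC libraries and 200 to 243 in sham libraries. Myl4 held 146 to 249 in day-1 TAC, 58.4 to 190 in day-7 TAC and 88.2 to 148 in sham libraries, and did not pass against sham. Dkk3, the marker that rose, had log2 fold changes of 0.64 with day-1 TAC and 0.59 with day-7 TAC (limma adjusted p = 0.0188 and 0.0311). Other atrial markers varied from library to library. The log2 values of Myl7, the atrial light chain, were 5.69, 6.79 and 6.16 in day-1 TAC libraries, 6.57, 4.68 and 4.76 in day-7 TAC libraries, and 5.78, 5.52 and 6.29 in sham libraries. Those of Sln, the atrial calcium pump regulator sarcolipin, were 3.03, 4.11 and 3.25 in day-1 TAC libraries, 4.18, 1.52 and 2.08 in day-7 TAC libraries, and 3.34, 2.95 and 3.31 in sham libraries. Day-7 TAC replicate 1, the library with the highest Nppa, was the highest of its group in both. In the other groups the library with the highest Nppa, day-1 TAC replicate 1 or sham replicate 2, had the lowest Myl7 and Sln. The part of atrial tissue in the Nppa result was not tested. Bmp10, an atrial marker, was under the filter in all groups.

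Of 10 tested markers of the conduction system and trabeculae, where Nppa persists longest, none rose and 5 fell in each TAC group. Their summed linear level was 151 to 203 in day-1 TAC libraries, 188 to 253 in day-7 TAC libraries and 290 to 348 in sham libraries. Irx3, one of them, had log2 fold changes of -1.77 with day-1 TAC and -1.43 with day-7 TAC (limma adjusted p = 0.000237 and 0.000752). Npr3 is known from the endocardium of the mouse heart. Of 8 endocardial markers, none rose, 3 fell with day-1 TAC and 2 with day-7 TAC, and their sum was 283 to 302 in day-1 TAC libraries, 263 to 303 in day-7 TAC libraries and 325 to 339 in sham libraries. For the endocardial marker Cytl1, the largest fall of this list, the log2 fold changes were -1.18 and -1.16 (limma adjusted p = 0.00247 and 0.0034). Cgnl1 held the largest part of the sum. Its linear value was 110 to 116 in day-1 TAC, 106 to 121 in day-7 TAC and 125 to 142 in sham libraries. Hapln1 (0.90 and 0.64) and Plvap (0.07 and -0.07) did not pass in either comparison with sham. The endocardial sums moved in the same direction as Npr3, and their part in its fall was not tested.

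Corin is a gene of heart muscle cells, and a list of ventricular heart muscle markers was set beside it. The summed levels of these markers were 89730 to 114000 in day-1 TAC libraries, 102300 to 111300 in day-7 TAC libraries and 116700 to 124500 in sham libraries. Myh6 held the largest part of these sums. Its linear value was 31300 to 45700 in day-1 TAC, 43400 to 45600 in day-7 TAC and 54200 to 60200 in sham libraries. Its log2 fold changes from sham, -0.485 with day-1 TAC and -0.345 with day-7 TAC, did not pass (limma adjusted p = 0.1175 and 0.273). Actc1, the marker that rose, went the other way, by 0.89 with day-1 TAC and 0.75 with day-7 TAC (limma adjusted p = 0.0036 and 0.0104). The linear value of Actc1 was 14300 to 15900 in day-1 TAC, 13000 to 14700 in day-7 TAC and 6800 to 10600 in sham libraries. Myl2 differed from sham by 0.01 and 0.06 and did not pass. The part of the ventricular markers in the Corin result was not tested. Of these 10 markers, 1 rose and 2 fell with day-1 TAC, 1 rose and 3 fell with day-7 TAC, and 1 was lower between the TAC groups. The sum of 10 fibroblast markers was 3662 to 4381 in day-1 TAC libraries, 3024 to 3635 in day-7 TAC libraries and 2792 to 3415 in sham libraries. Of these fibroblast markers, 4 rose with day-1 TAC, Lum (1.04), Pi16 (0.99), Col1a1 (0.81) and Col1a2 (0.67), and 1 fell, Pdgfra (-0.36). With day-7 TAC 1 rose and 0 fell. For 10 endothelial markers the sum was 1687 to 1859 in day-1 TAC, 1778 to 1851 in day-7 TAC and 1850 to 1972 in sham libraries. For 10 smooth muscle and pericyte markers it was 1674 to 2047 in day-1 TAC, 2285 to 2404 in day-7 TAC and 2332 to 2517 in sham libraries. Of these, 2 rose and 3 fell with day-1 TAC, with a median log2 fold change of 0.165, and 2 rose and none fell with day-7 TAC, with a median of 0.104. With day-1 TAC, Tagln (0.51) and Cspg4 (0.52) rose, while Abcc9 (-1.08), Kcnj8 (-0.44) and Rgs5 (-0.30) fell (limma adjusted p 0.00174 to 0.0265). Abcc9 and Rgs5 were the fallers with the highest linear values, at 252 to 428 and 760 to 863 in day-1 TAC libraries, against 676 to 897 and 898 to 1090 in sham libraries.

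Genes with the most similar profile to each member were ranked by Pearson's r over the 9 libraries, among 10595 genes whose mean log2 value reached 2. These values are descriptions, since the 9 libraries share 3 groups. Corin was most like Epas1 (r = 0.99), Catsper2 (0.99), Pan2 (0.98) and Ubr4 (0.98). Nppa was most like Adamtsl5 (0.99), Kif26b, Dctd, Ppp1r14b and Ciapin1, and Nppb like Krt18 (0.99), Timm10, Nop16, Med8 and Mmp14. Npr3 was most like Acbd5 (0.98) and Gna12 (0.95), Npr1 like Lgals8 (0.98), Npr2 like Adck2 (0.97), and Furin like Ik (0.96). Nppa and Nppb had r = 0.97 with each other, while Corin and Nppa had r = -0.58.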

How the data were processed

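The deposited table holds log2 values, which the authors made and named as TMM-scaled per the file headers, for 16710 rows of gene symbols in 9 libraries. Per the labels' protocols, mRNA was purified from left ventricular RNA and sequenced from 1 end over 50 cycles. The tools Trim Galore, STAR and edgeR, and build mm10, come from the submitters' processing notes. Their versions, the annotation and the strand setting are not given in these sources. After the log was undone, 100% of values in each library were whole multiples of its lowest value (tolerance 0.001), which was counted as 1 read. In the header 2 sham columns carry the same name, so sham numbers 2 and 3 follow column order. 12 rows of 3 repeated symbols were left out.

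The 13712 genes with a log2 value above 0 in 3 or more libraries were tested. All 9 libraries entered 1 limma model (version 3.58.1, R 4.3.3) of the log2 values with an intensity trend, two-sided, with Benjamini-Hochberg adjustment over all genes tested and a threshold of 0.05. A fold change is a difference of group means of log2 values, and n = 3 per group. Ratios were compared with exact permutation tests. A linear value is 2 to the power of the log2 value. Gene models are from GENCODE mouse release 21. Depth limits precision for low genes such as Nppc.

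The members, lists and tests were chosen with earlier results of these data known. Named genes were the 7 members, up to 4 genes of each list with the smallest p in a comparison, and the 5 genes most like each member; some of these are not reported here. The fit was tested on simulated data. Alternatives were other scalings, filters, a pseudocount of 1, no trend, fewer groups, a replicate block, each library left out, and limma's voom weights on recovered reads, which were added after seeing the data.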

Additional observations from a re-analysis of the deposited data

Results flagged for a closer look

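The effect of TAC differed between the TAC groups, whose age at surgery and time under load cannot be told apart, by the direct limma test of day-1 TAC against day-7 TAC, for Corin among the members (log2 difference -1.90). Among the pathway genes named, it was higher with day-1 TAC for Mme (1.55), Egr1 (1.75), Fos (1.27), Agtrap (0.626) and Pde9a (0.526). It was lower with day-1 TAC for Atf3 (-2.07), Rgs2 (-0.953), Dpp4 (-0.817), Pde1c (-0.666), Pde3a (-0.582), Clcn6 (-0.549), Pcsk7 (-0.346), Mef2a (-0.325) and Ide (-0.32). Leaving out single libraries ended some of these calls. Pcsk7 was lost in 7 of 9 such fits, all but those without sham replicate 1 and without day-1 TAC replicate 2 (limma adjusted p of up to 0.122), and in 6 of 10 other settings (up to 0.0707). Clcn6 was lost without day-7 TAC replicate 1 or 2 or day-1 TAC replicate 1 or 3 (up to 0.0865). Mef2a (up to 0.0851) and Ide (up to 0.0711) were lost without replicate 2 or 3 of day-7 TAC or replicate 1 or 3 of day-1 TAC. Rgs2 was lost without replicate 1 or 2 of either TAC group (up to 0.0911). In this comparison 16.7% of all tested genes were called. Of the members, Corin and Furin had groups that did not overlap, and Furin did not pass the test.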

How the results depend on the processing

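Of 11 member results that passed the test, 9 passed in every alternative and 2 were lost in at least one, and none of the 11 reversed. Of 47 pathway gene results that passed, 12 lost their call in at least one alternative and none reversed. Leaving out a library gave 3259 to 4525 genes called for day-1 TAC against sham (4776 with all libraries), 2594 to 4404 for day-7 TAC against sham (3962) and 1261 to 2491 between the TAC groups (2287). The low values were 2594 without day-7 TAC replicate 2, and 1290, 1261 and 1300 without day-7 TAC replicates 1, 2 and 3. Members called ranged from 5 to 6, 3 to 5 and 1 to 2, the last being Corin and Nppa without day-1 TAC replicate 1. Day-7 TAC against sham gained Npr2 without sham replicate 3 or day-1 TAC replicate 1, and with the stricter filter, the pseudocount or only the groups compared (limma adjusted p = 0.046, 0.0498 and 0.0433). Differences that changed sign were small and not called: Furin with day-7 TAC against sham (-0.015 to 0.15), and between the TAC groups Npr1 (-0.18 to 0.0036), Npr2 (-0.045 to 0.074) and the log2 ratio of Nppa to Nppb (-0.41 to 0.0009). The cause was not tested.

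With only the groups compared in the fit, Corin passed for day-7 TAC against sham (limma adjusted p = 0.0231). Scaling by library total moved the median of all genes by 0.1 for day-1 TAC against sham and made 60.1% of called genes higher instead of 41.1% (59.7% instead of 47.7% for day-7 TAC against sham, 50.2% instead of 38.5% between the TAC groups); members called became 5, 4 and 1, and no member changed direction. Voom weights called 4753, 4039 and 2131 genes. Same-numbered TAC libraries had deviation correlations of -0.224, -0.11 and -0.0365, and differently numbered ones -0.167 to 0.228. No pairing by number was seen, though 3 libraries per group are too few to exclude one. With the replicate block 1839 genes were called between the TAC groups and 1 member, and Rgs2 was lost (limma adjusted p = 0.0571). No paired analysis was possible for the sham comparisons because 2 sham columns carry the same number. The planned edgeR and DESeq2 tests on recovered reads were not run. The deposited unit is log2, and the voom weights on recovered reads were used in their place.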
